A study of Homo sapiens with 9 samples.

Results

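The response common to 2 siRNAs against EXOSC10-AS1 was measured in HCT116, an established cell line from a human colorectal cancer, as the equally weighted mean of the siRNA 1 group and the siRNA 2 group against the control siRNA group, over every gene. All 9 of the 9 libraries of the series enter this comparison. HCT116 cells were transfected with Lipofectamine RNAiMax, a lipid reagent. 3 libraries have the treatment control siRNA and the genotype Control, while 3 with siRNA 1 and 3 with siRNA 2 have the genotype EXOSC10-AS1 knockdown, and all of them have the batch entry of day 3. All groups are the same cell line without a further allele or drug. Nothing in the labels tells whether replicates are separate transfections, so the p-values measure the spread between these libraries, which may be technical. Below, a gene is called where the adjusted p of edgeR's quasi-likelihood test was under 0.05, and a common gene is called in the average and, in the same direction, with each siRNA. Values after ± are standard errors of log2 changes unless SD is named, and levels are counts scaled to the library's total (CPM) in replicates 1, 2 and 3 of a group.

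A small interfering RNA loads into an Argonaute protein and guides the cutting of transcripts that match it fully, while transcripts that match only the siRNA's seed can also be lowered. Studies therefore often use several siRNAs of different sequence against the same transcript and look for the changes that they share. EXOSC10-AS1 encodes a long non-coding RNA from the strand opposite to EXOSC10, whose product is a 3′ to 5′ exonuclease of the nuclear RNA exosome, the complex that trims and degrades many nuclear RNAs. HCT116 cells have a stabilised beta-catenin, lack mismatch repair, and carry an inactivated TGF-beta type II receptor gene.

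EXOSC10-AS1 itself was measured with few counts. It had 4 to 26 counts in a control library and 0 to 13 in an siRNA library, and the ranges overlapped. The average log2 change was -2.35 ± 1.08, which did not pass the test (adjusted p = 0.24). The log2 change of siRNA 2 minus siRNA 1 was 2.11, which was not called either (adjusted p = 0.346). EXOSC10 stood at 94.1, 89.7 and 88.7 CPM in control, 103, 89.3 and 91.4 CPM with siRNA 1 and 101, 99.7 and 98.2 CPM with siRNA 2. Its ranges overlapped and its average log2 change was 0.10 ± 0.06 (adjusted p = 0.42). The lowered target that both siRNA labels state is therefore not called here, and the results below are those of the libraries so labelled.

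The libraries held 56.8 to 66.5 M counts, and mitochondrial transcripts made up 8.21% to 9.09% of them. 3 siRNA libraries stood apart. Across 12234 genes, the difference from control followed GC content with a correlation of 0.549 in siRNA 1 replicate 1 and of -0.509 and -0.516 in siRNA 2 replicates 2 and 3, against -0.169 to 0.0465 in the other 6 libraries, and genes are not independent replicates. The trends have opposite signs in the 2 siRNA groups. Some counts below are also given without these 3 libraries. That fit keeps only replicate 1 of siRNA 2. Its calls then hold no spread within siRNA 2 and are not replicated for it. Of 12 colorectal epithelial markers, among them EPCAM and KRT8, 9 were tested, and the list summed to 5284 to 5390 CPM in control, 4492 to 5298 CPM with siRNA 1 and 3869 to 4564 CPM with siRNA 2. Fibroblast markers summed to 59.6 to 61.4 CPM in control, 46.9 to 52.3 CPM with siRNA 1 and 36.7 to 40.4 CPM with siRNA 2. Of these 10 markers 4 were tested, and 1 of the 4 had the same sign with both siRNAs. Leukocyte markers summed to 17.9 to 24.3, 33.3 to 38.2 and 6.11 to 9.15 CPM in the 3 groups, most of it from CD68, while PTPRC, CD3E, MS4A1 and HBB were at 0 in every library. Endothelial markers summed to at most 2.58 CPM in any library, with EMCN at 0. The part of these shifts in the results below was not tested.

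In the average of both siRNAs, 720 genes were higher (3.45% of 20868 tested) and 818 lower (3.92%), which is 7.37% together. The share higher was 46.8% of the genes called, and 60.6% with the GC trend removed from every library. The common response was smaller. It held 448 genes, of which 259 rose (1.24% of genes tested) and 189 fell (0.906%) with each siRNA, 2.15% together. With siRNA 1 alone 777 genes were higher (3.72%) and 701 lower (3.36%), 7.08% together. With siRNA 2 alone 1284 were higher (6.15%) and 1588 lower (7.61%), 13.8% together. These 448 made up 29.1% of the 1538 genes called in the average. A further 749 were called with siRNA 2 and not with siRNA 1, 303 with siRNA 1 and not with siRNA 2, and 35 with neither siRNA alone, while 3 were called in opposite directions with the 2 siRNAs. Of the 749 and 303 genes, 701 and 276 had the same sign with both siRNAs, as did 11864 of all 20868 genes tested. A call in the average favours genes of the same sign, so these counts are no test of agreement. By the test of siRNA 2 against siRNA 1, 390 and 177 of the 749 and 303 differed between the siRNAs. That test called 10.1% of all genes higher with siRNA 2 and 12.3% lower, 22.4% together. Among the common genes it called 70, or 15.6%. The rule for common genes requires the same direction with each siRNA, so this share is not comparable with that of all genes. The 2 comparisons with control share the 3 control libraries, so the count of common genes is what the rule gives and not a test of overlap.

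**Figure D1:**
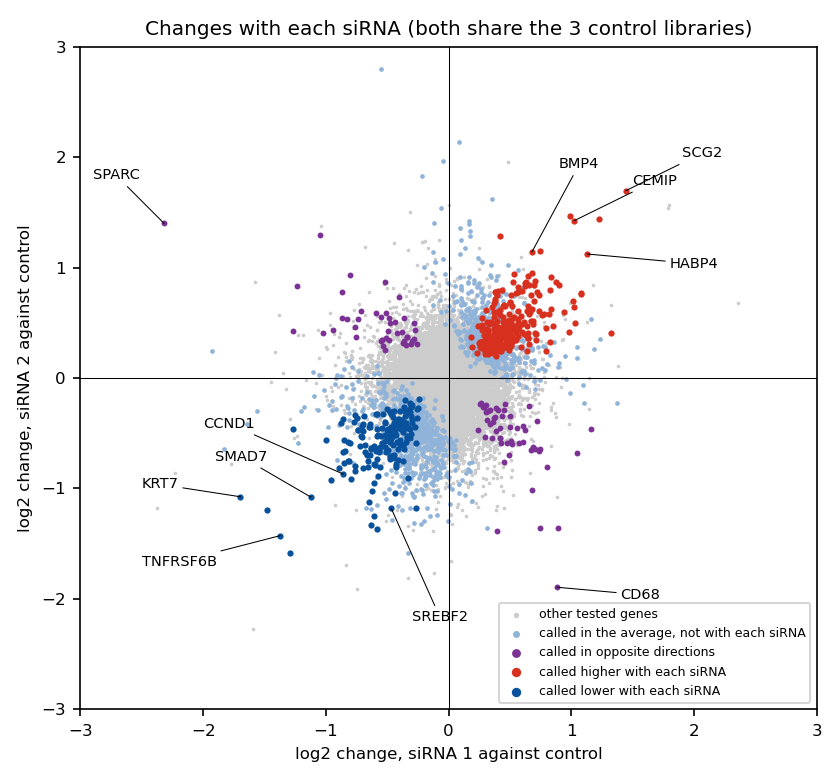
Each point is a gene whose average log2 CPM is 2 or more, with its log2 change against control with siRNA 1 on the x axis and with siRNA 2 on the y axis. Red and dark blue points are the genes called higher or lower in the average and with each siRNA, light blue points are called in the average only or with 1 siRNA, and purple points are called in opposite directions. SCG2 lies at the upper right and KRT7 and TNFRSF6B at the lower left, while SPARC and CD68 lie in the 2 quadrants of opposite sign. The axes end at 3 in either direction, and the few genes beyond are not drawn.

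**Figure D2:**
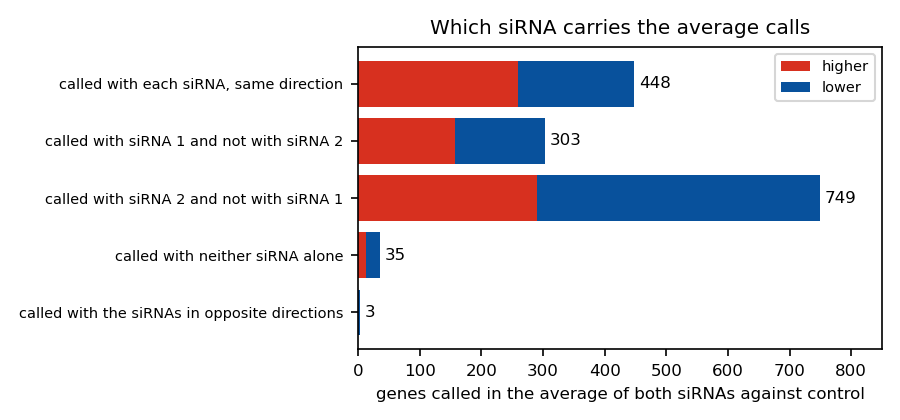
Number of genes called in the average of both siRNAs against control, divided by whether each siRNA alone was called. Red parts are higher and blue parts lower genes, and the number beside each bar is its total. The longest bar is that of the 749 genes called with siRNA 2 and not with siRNA 1.

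The common changes were mostly modest. The median average log2 change was 0.47 among the common genes that rose and -0.55 among those that fell, against -0.02 over all genes tested. Leaving aside 2 genes with at most 3 counts over the controls, 12 common genes rose and 17 fell at least 2-fold in the average. Over all genes, all 6 siRNA libraries lay above all 3 controls in 5.58% and below them in 6.18%. The rule for common genes itself favours such separation, so its presence in 447 of the 448 is no further support. BEST1 was the exception, with 1.10, 15.1 and 18.9 CPM in control, 0.805, 0.733 and 1.87 CPM with siRNA 1 and 1.64, 1.25 and 0.702 CPM with siRNA 2. It overlaps FTH1 on the opposite strand and lost its call without control replicates 2 or 3. Of the common genes, 244 of 259 and 173 of 189 were protein-coding (94.2% and 91.5%), against 69.7% of all genes tested. Their median average log2 CPM was 5.641 and 5.455, against 3.381 over all genes, so they were also more highly expressed. The median GC content of the longest transcript was 48.0% in the genes that rose and 54.7% in those that fell, against 49.1% over all genes. Exons overlapped those of a gene on the opposite strand in 39.8% and 40.2% of them, against 37.1% of all genes, and the counting strand is not given, so such counts cannot be assigned to a strand.

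The number of common genes depended on which libraries were used. It was 118, 110 and 127 without control replicates 1, 2 and 3, it was 1089, 251 and 240 without siRNA 1 replicates 1, 2 and 3, and 613, 215 and 213 without siRNA 2 replicates 1, 2 and 3. Without the 3 libraries that followed GC content only replicate 1 of siRNA 2 remained, so counts with each siRNA are not given. With the GC trend removed from every library the number of common genes was 1373, of which 396 were among the 448. Only 115, 108 and 117 of the 448 stayed common without control replicates 1, 2 and 3. Without a control library, 217 to 226 of the 448 were still called in the average. All 448 had the same sign in the average and with each siRNA. These fits reuse libraries from which the 448 were chosen, so the kept signs are no further support. The cause of the lower counts was not tested. Below, a call of a single gene that is kept or lost is its call in the average. A gene that kept this call need not have stayed common.

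Common genes without overlapping libraries and an average log2 CPM no lower than 2 were ranked by the smaller of their 2 siRNA changes, and the first 15 in each direction are called the leading genes. The first of those that rose was SCG2, which encodes secretogranin II, a granin of secretory granules. SCG2 stood at 8.51, 9.31 and 8.62 CPM in control, at 23.4, 25.1 and 23.5 CPM with siRNA 1 and at 24.5, 30.3 and 31.0 CPM with siRNA 2. Every siRNA library lay above every control, and the average log2 change was 1.57 ± 0.10 (adjusted p = 0.00016). CEMIP, which encodes a protein that helps to break down hyaluronan, was at 12.7, 11.6 and 10.8 CPM in control, at 25.4, 23.0 and 23.2 CPM with siRNA 1 and at 31.0, 33.1 and 30.5 CPM with siRNA 2. It rose by 1.23 ± 0.08 in the average, and the rise was larger with siRNA 2 (siRNA 2 minus siRNA 1 0.40, adjusted p = 0.013). HABP4, an RNA and hyaluronan binding protein gene, was at 18.2, 16.97 and 19.3 CPM in control and at 38.1, 42.0 and 39.4 CPM and 43.4, 36.1 and 39.4 CPM with siRNA 1 and siRNA 2. The groups did not overlap, and the log2 change was 1.13 ± 0.09 with siRNA 1 and 1.12 ± 0.09 with siRNA 2.

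TPM4, an actin-binding tropomyosin gene, was at 240.0, 233 and 236 CPM in control, 397, 460.5 and 464 CPM with siRNA 1 and 427, 416 and 429 CPM with siRNA 2, with no overlap and an average log2 change of 0.87 ± 0.06 (adjusted p = 0.00016). FGF9, a secreted fibroblast growth factor gene, was at 16.5, 15.4 and 17.7 CPM in control, 19.3, 32.0 and 31.9 CPM with siRNA 1 and 36.3, 36.5 and 37.6 CPM with siRNA 2. Its siRNA 1 replicate 1 lay only just above the highest control, and its average log2 change was 0.95 ± 0.15. ZW10, a kinetochore gene of the mitotic checkpoint, rose by 0.81 ± 0.07, the mitochondrial thiolase gene ACAT1 by 0.74 ± 0.06, the peroxisomal gene HSDL2 by 0.79 ± 0.11, the histone gene H2BC5 by 0.75 ± 0.10, the zinc finger gene ZNF616 by 0.88 ± 0.14 and the immunoglobulin-like receptor gene ILDR2 by 0.92 ± 0.13. The remaining leading genes that rose were the nucleolar gene GPATCH4 (1.33 ± 0.28), MOCS2-DT, a divergent transcript of MOCS2 (0.92 ± 0.15), and ENSG00000196656 and ENSG00000282304, which are named here only by identifier (1.23 ± 0.22 and 0.87 ± 0.16). The calls of GPATCH4 and ENSG00000196656 were lost without each control library in turn (adjusted p up to 0.108 and 0.0659), that of ENSG00000282304 without control replicates 2 or 3 (up to 0.0743), that of MOCS2-DT without control replicate 3 (0.0521) and that of FGF9 without control replicate 2 (0.0503). Outside the leading genes, but among the 10 common genes that rose with the smallest adjusted p, the fatty acid activating gene ACSL5 rose by 0.65 ± 0.06 and GANAB, the catalytic subunit gene of the endoplasmic reticulum glucosidase II, by 0.67 ± 0.06. CEMIP, HABP4, TPM4, ACAT1, MOCS2-DT and ACSL5 overlap exons on the opposite strand, and ZNF616 and ENSG00000282304 those of a gene on the same strand.

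The 15 leading genes that fell include SMAD3, SMAD6, SMAD7, CCN2, CCND1, NFKBIA, CXCL8 and KRT7, which are described with their pathways. Among the others, the DNA cytidine deaminase gene APOBEC3B fell by 0.79 ± 0.08 and the endothelial early response gene APOLD1 by 1.34 ± 0.18. TNFRSF6B had a wide spread. It encodes a soluble decoy receptor of the TNF receptor family, and stood at 177, 162 and 179.8 CPM in control, 102, 36.2 and 62.2 CPM with siRNA 1 and 93.1, 52.8 and 47.0 CPM with siRNA 2. All siRNA libraries lay below the controls, with replicate 1 of each siRNA the highest, and the average log2 change was -1.40 ± 0.28 (adjusted p = 0.017), a call lost without each control library in turn (adjusted p up to 0.0878). Outside the leading genes, but among the 10 common genes that fell with the smallest adjusted p, are TNFRSF10D, which is described with the p53 genes, and 6 others. Of them APLP2, a relative of the amyloid precursor protein gene, was at 683, 702 and 688 CPM in control, 466, 442 and 427 CPM with siRNA 1 and 439.8, 446 and 441 CPM with siRNA 2. The groups did not overlap, and the log2 change was -0.64 ± 0.05 with siRNA 1 and -0.64 ± 0.05 with siRNA 2. The transglutaminase gene TGM2 fell by 0.86 ± 0.06 in the average, from 107, 109.6 and 109.9 CPM to 48.4, 44.7 and 42.5 CPM with siRNA 1 and 82.7, 78.4 and 76.1 CPM with siRNA 2. The fall of TGM2 was smaller with siRNA 2 (siRNA 2 minus siRNA 1 0.81, adjusted p = 0.00012). The ceramide kinase gene CERK fell by 0.78 ± 0.06, the metalloproteinase inhibitor gene TIMP2 by 0.60 ± 0.05, the stress-induced gene GADD45B by 0.98 ± 0.08 and ANKZF1, which acts in ribosome quality control, by 0.70 ± 0.06.

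Counts of several leading genes that fell cannot be assigned to a single gene. RPL17-C18orf32 is a readthrough gene that shares exons with RPL17 and C18orf32 (-1.44 ± 0.18), PILRB shares exons with PILRA and other genes (-0.86 ± 0.15), TBC1D3E belongs to a family of near-identical copies (-0.78 ± 0.13) and MAMDC4 overlaps PHPT1 (-0.76 ± 0.14). TNFRSF6B, APOBEC3B and APOLD1 also share exons with a gene on the same strand, as does TIMP2 outside the leading genes. The calls of PILRB (adjusted p up to 0.065 without control replicates 1 or 2), TBC1D3E (up to 0.061 without control replicates 2 or 3) and MAMDC4 (up to 0.0699 without each control) were lost when a control was left out. Of the 30 leading genes, 18 were called in the average under every alternative tried, which does not require a call with each siRNA.

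**Figure D3:**
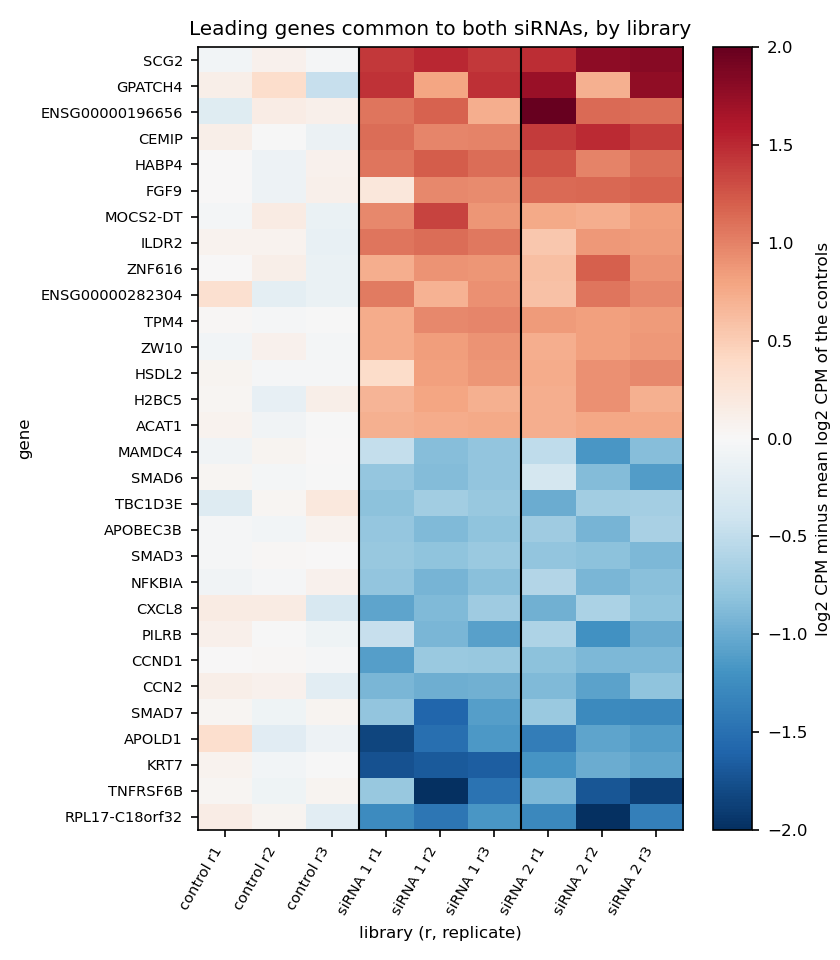
Each row is a leading common gene and each column a library, with replicates numbered r1 to r3. Colour is the log2 CPM minus the mean log2 CPM of the 3 controls, drawn from -2 to 2. The 15 genes that rose are red and the 15 that fell blue in all 6 siRNA libraries, and siRNA 1 r1 is paler than its replicates in FGF9 and HSDL2.

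TGF-beta and BMP ligands signal through receptor kinases that phosphorylate SMAD proteins. SMAD3 carries TGF-beta signals to the nucleus, SMAD7 and SMAD6 are inhibitory SMADs whose genes are themselves induced by these signals, and CCN2 and AMOTL2 are standard targets of the YAP and TEAD transcription factors. In this pathway the ligand gene BMP4 and the BMP target ID3 rose, while SMAD3, both inhibitory SMAD genes, CCN2 and AMOTL2 fell with each siRNA. SMAD3 stood at 147, 152 and 149.9 CPM in control, 88.6, 85.4 and 89.7 CPM with siRNA 1 and 86.0, 84.3 and 80.1 CPM with siRNA 2. No siRNA library reached the controls, and the average log2 change was -0.80 ± 0.05 (adjusted p = 0.00016). SMAD7 was at 9.09, 8.34 and 9.27 CPM in control, 5.16, 2.96 and 4.15 CPM with siRNA 1 and 5.33, 3.67 and 3.63 CPM with siRNA 2, all siRNA libraries below the controls. It fell by 1.10 ± 0.18 in the average. SMAD6 was at 13.8, 13.1 and 13.3 CPM in control, 7.85, 7.33 and 7.72 CPM with siRNA 1 and 10.5, 7.31 and 6.16 CPM with siRNA 2. Here siRNA 2 replicate 1 came closest to the controls without reaching them, and the average log2 change was -0.78 ± 0.14 (adjusted p = 0.012).

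CCN2, which encodes a secreted matrix-associated growth factor, had 11.3, 11.04 and 8.93 CPM in control, 5.504, 5.28 and 5.30 CPM with siRNA 1 and 5.604, 4.92 and 5.96 CPM with siRNA 2. The groups did not overlap, and CCN2 fell by 0.94 ± 0.11 (adjusted p = 0.0018). AMOTL2, an angiomotin family gene, fell by 0.61 ± 0.06 and the receptor tyrosine kinase gene AXL by 0.60 ± 0.06. BMP4 stood at 108, 106 and 108 CPM in control, 187, 168 and 160.3 CPM with siRNA 1 and 252, 226 and 232 CPM with siRNA 2. Every siRNA library was above the controls, all siRNA 2 libraries were above those of siRNA 1, and the average log2 change was 0.91 ± 0.07 (adjusted p = 0.00019). ID3, an inhibitor of basic helix-loop-helix factors, ran from 15.2, 13.6 and 13.3 CPM in control to 25.7, 20.3 and 21.5 CPM with siRNA 1 and 26.1, 28.99 and 26.7 CPM with siRNA 2, a rise of 0.82 ± 0.10. Outside the lists, and chosen after their values were seen, the receptor gene TGFBR2 fell by 0.62 ± 0.07 and PMEPA1, a feedback inhibitor of TGF-beta signalling, by 1.06 ± 0.17.

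Of 27 TGF-beta and YAP target genes tested, 9 fell, 1 rose and 17 were not called in the average. SMAD3 and BMP4 are not among the 27, and BMP4 is counted with the Wnt targets below. The median log2 change of all 27 was -0.15 against -0.02 over all genes. With the GC trend removed these medians were -0.07 and 0.02. Over all genes 3.92% fell and 3.45% rose in the average, shares to be set beside the counts of this and later lists. The lists were chosen with earlier results of these data known, so their counts and medians are descriptions and not tests. With siRNA 1, 9 fell and 1 rose and with siRNA 2, 6 fell and 4 rose, and the medians were -0.33 and -0.14. Those called in the average with 1 siRNA only included CRIM1 (-0.35), NUAK2 (-0.59) and ID2, whose log2 change was -0.81 with siRNA 1 and 0.16 with siRNA 2. The list had 4, 4 and 3 genes lower without control replicates 1, 2 and 3, and 13 without the 3 libraries that followed GC content. The calls of SMAD6 (adjusted p up to 0.0719 without each control), SMAD7 (0.0546 without control replicate 3) and PMEPA1 (up to 0.0553 without control replicates 1 or 3) were lost when a control was left out. Those of CRIM1, NUAK2 and ID2 were lost without each control (up to 0.104, 0.19 and 0.167), those of NUAK2 and ID2 also without replicate 2 of siRNA 1 or replicate 2 or 3 of siRNA 2, and that of NUAK2 also without replicate 3 of siRNA 1. SMAD3, AXL and PMEPA1 overlap exons on the opposite strand.

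The promoters of CCN2 and SMAD6 are shown because they were the only ones of the 6 common genes of this list whose 250 bases before the transcript start held 1 of 2 motifs searched. The sequences are from RefSeq on GRCh38.p14, in the direction of the gene, and the motif was searched on both strands. CCN2 (chr6:131951373-131951622, minus strand) held the TEAD core GGAATG 3 times, starting 169, 104 and 95 bases before the start, and 11.9% of all 27305 promoters held it at least once. SMAD6 (chr15:66701986-66702235, plus strand) held the palindromic SMAD element GTCTAGAC, starting 12 bases before the start, as did 0.176% of all promoters. Capitals mark the matches, which describe letters and not binding.
CCN2 promoter: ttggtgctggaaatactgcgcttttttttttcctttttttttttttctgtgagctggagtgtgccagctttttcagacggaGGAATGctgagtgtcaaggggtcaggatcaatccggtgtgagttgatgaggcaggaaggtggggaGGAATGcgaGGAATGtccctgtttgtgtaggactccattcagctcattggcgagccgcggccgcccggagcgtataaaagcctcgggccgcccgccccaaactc
SMAD6 promoter: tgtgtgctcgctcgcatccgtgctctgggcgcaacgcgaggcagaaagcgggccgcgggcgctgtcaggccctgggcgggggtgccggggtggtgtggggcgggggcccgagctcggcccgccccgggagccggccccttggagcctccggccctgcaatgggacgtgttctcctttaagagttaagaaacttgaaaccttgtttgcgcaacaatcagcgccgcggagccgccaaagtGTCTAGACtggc

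CCND1, which encodes cyclin D1, the partner of CDK4 and CDK6 in the passage through G1, fell by nearly the same amount with both siRNAs. It stood at 1489, 1501 and 1463 CPM in control, 692, 888 and 878 CPM with siRNA 1 and 836, 799.9 and 799 CPM with siRNA 2. All siRNA libraries were far below the controls, with siRNA 1 replicate 1 the lowest, and the log2 change was -0.86 ± 0.09 with siRNA 1 and -0.87 ± 0.09 with siRNA 2 (adjusted p = 0.00031 in the average). CDKN1A, the p21 inhibitor gene, was at 769, 759 and 782 CPM in control, 601, 589 and 599.9 CPM with siRNA 1 and 628, 556 and 546 CPM with siRNA 2. It fell by 0.39 ± 0.05 with no overlap. The log2 change of CDKN1A was -0.37 with siRNA 1 and -0.42 with siRNA 2, and -0.39 and -0.20 with the GC trend removed. CDK4 rose by 0.36 ± 0.07 with each siRNA called, but lost its call in the average without each control library in turn (adjusted p up to 0.102). Of 15 D-type cyclins, their kinases and inhibitors tested, 4 fell and 1 rose in the average. The other 2 that fell were the inhibitor genes CDKN1B (-0.41), called with siRNA 1 only, and CDKN1C (-0.96), called with siRNA 2 only, and they lost their calls without control replicates 1 or 2 and without each control (adjusted p up to 0.0668 and 0.0658). Without control replicates 1, 2 and 3 the list had 2, 2 and 3 genes lower. CCND1 and CDK4 overlap genes on the opposite strand, and so does CDKN1A.

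CCND1 is also a target of the MAPK pathway, where of 25 output and feedback genes 5 fell and 1 rose in the average (median -0.10). DUSP5, a phosphatase gene induced by ERK, was at 326, 324 and 317 CPM in control, 243, 208 and 205 CPM with siRNA 1 and 206, 167 and 179 CPM with siRNA 2. It fell by 0.68 ± 0.08 (adjusted p = 0.0016) with no overlap. AREG, which encodes the EGFR ligand amphiregulin, moved the other way, from 297, 296 and 289 CPM in control to 392, 409 and 416 CPM with siRNA 1 and 388, 362 and 372 CPM with siRNA 2, a rise of 0.41 ± 0.05. FOSL1 (-0.39), EPHA2 (-0.35) and HBEGF (-0.31) were lower in the average and not called with each siRNA, and lost their calls without each control library (adjusted p up to 0.0886, 0.175 and 0.193), EPHA2 and HBEGF also without replicate 2 or 3 of either siRNA. Leaving out control replicate 1, 2 or 3 left 2, 2 and 2 genes of this list lower. Of 20 Wnt targets, BMP4, CD44 (0.34 ± 0.06) and CTNNB1 (0.23) rose and the secreted Wnt deacylase gene NOTUM fell (-0.69 ± 0.12). The calls of CD44 and CTNNB1 were lost without each control (adjusted p up to 0.0739 and 0.105), and that of NOTUM without control replicates 2 or 3 (up to 0.0737).

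NF-kB transcription factors are held in the cytoplasm by IkB proteins, and the IkB-alpha gene NFKBIA is a rapid target of the pathway it inhibits. NFKBIA stood at 28.2, 29.2 and 31.4 CPM in control, 17.2, 15.5 and 16.6 CPM with siRNA 1 and 19.8, 15.7 and 16.6 CPM with siRNA 2. It was lower in all siRNA libraries than in any control, with an average log2 change of -0.81 ± 0.09 (adjusted p = 0.0014). CXCL8, the interleukin-8 gene, was at 13.3, 13.4 and 9.52 CPM in control, 5.73, 6.499 and 7.27 CPM with siRNA 1 and 6.16, 7.70 and 6.81 CPM with siRNA 2. Control replicate 3 was the lowest control and still above every siRNA library, and CXCL8 fell by 0.85 ± 0.14. Of 21 genes of the NF-kB pathway and its inflammatory targets, 6 fell and 15 were not called in the average, with a median of -0.33 (siRNA 1 -0.29, siRNA 2 -0.44). The other 4 were the subunit genes NFKB2 (-0.51) and RELA (-0.33), the deubiquitinase gene TNFAIP3 (-0.59) and the inhibitor of apoptosis gene BIRC3 (-0.62). Only 3, 1 and 2 of the list were lower without control replicates 1, 2 and 3. CXCL8 lost its call without control replicates 1 or 2 (adjusted p up to 0.0545), NFKB2 and TNFAIP3 without control replicates 2 or 3 (up to 0.0533 and 0.069), and RELA and BIRC3 without each control and without some siRNA libraries (up to 0.117 and 0.152, RELA without siRNA 1 replicate 3 and BIRC3 without siRNA 1 replicate 2 or any siRNA 2 replicate).

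Cells short of sterols release the transcription factor SREBP2, encoded by SREBF2, which turns on the genes of cholesterol synthesis, while INSIG2 retains it in the endoplasmic reticulum. SREBF2 stood at 350.5, 366 and 359 CPM in control, 279, 251 and 248 CPM with siRNA 1 and 183, 149.7 and 141 CPM with siRNA 2. All siRNA libraries were below the controls and all siRNA 2 libraries below those of siRNA 1, with log2 changes of -0.47 ± 0.10 and -1.18 ± 0.10 (adjusted p of the difference = 0.0011). SQLE, the squalene epoxidase gene, was at 118, 115 and 119 CPM in control and at 81.7, 87.2 and 85.4 CPM and 82.2, 89.4 and 87.1 CPM with siRNA 1 and siRNA 2. Its log2 change was -0.47 ± 0.06 with siRNA 1 and -0.44 ± 0.06 with siRNA 2.

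Of 30 genes of cholesterol synthesis and its control, 15 fell and 15 were not called in the average, and the median was -0.30. The list was carried more by siRNA 2, where 20 fell with a median of -0.46, than by siRNA 1, where 7 fell and 1 rose with a median of -0.11, and 15 of its genes differed between the siRNAs. 5 of the 30 were common, HMGCS1 (-0.49 ± 0.10) and INSIG2 (-0.52 ± 0.11) among them with SREBF2 and SQLE. HSD17B7 (-0.61), MVK (-0.53), IDI1 (-0.57) and MSMO1 (-0.77) were among those called in the average and with siRNA 2 and not with siRNA 1. MSMO1 had nearly the same log2 change with both, -0.78 and -0.77. The list had 6, 6 and 5 genes lower without control replicates 1, 2 and 3, 22 without the 3 libraries that followed GC content and 21 with the GC trend removed, and its median lay between -0.32 and -0.27 under all 20 alternatives. INSIG2, HMGCS1 and MSMO1 lost their calls without each control (adjusted p up to 0.0961, 0.104 and 0.137) and IDI1 without control replicate 3 (0.0546). HMGCS1 was also lost without siRNA 2 replicate 3, and MSMO1 without siRNA 2 replicates 2 or 3. SCD, which desaturates fatty acids and shares this regulator family, fell by 0.38 ± 0.04 with each siRNA called, while of 17 fatty acid synthesis genes 2 fell and ME1, a source of NADPH, rose (0.61 ± 0.09).

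The SREBF2 promoter is shown because it was the 1 promoter of this list's common genes with a match to a sterol regulatory element, the sequence that SREBP proteins bind. 3 of the 5 common genes had a promoter in the RefSeq table on GRCh38.p14, and 1 of the 3 held TCACNCCAC on either strand in the 250 bases before the start, as did 0.875% of all promoters. In SREBF2 (chr22:41832855-41833104, plus strand) the match starts 133 bases before the start and stands in capitals.
SREBF2 promoter: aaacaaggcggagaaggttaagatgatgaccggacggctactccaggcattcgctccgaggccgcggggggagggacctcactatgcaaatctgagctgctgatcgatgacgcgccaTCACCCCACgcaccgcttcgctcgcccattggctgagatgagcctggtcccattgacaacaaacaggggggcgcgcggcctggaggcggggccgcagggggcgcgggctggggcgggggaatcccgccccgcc

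Hypoxia-inducible factors turn on glucose uptake, glycolysis and mitophagy genes when oxygen is low. BNIP3, which marks mitochondria for autophagy, stood at 243, 239 and 232 CPM in control, 137, 162 and 157 CPM with siRNA 1 and 182, 162 and 181 CPM with siRNA 2. The siRNA libraries were all below the controls, with siRNA 1 replicate 1 the lowest, and the average log2 change was -0.55 ± 0.07 (adjusted p = 0.0022). BNIP3L, its homologue, was at 328, 321 and 319 CPM in control, 159, 236 and 228 CPM with siRNA 1 and 129, 127 and 128 CPM with siRNA 2. It fell by 0.99 ± 0.10, more with siRNA 2 (siRNA 2 minus siRNA 1 -0.70, adjusted p = 0.0045). SLC2A1, the glucose transporter gene, was at 1549, 1564 and 1578 CPM in control, 1287, 1248 and 1256 CPM with siRNA 1 and 1243, 1023 and 1024 CPM with siRNA 2. It fell by 0.41 ± 0.06, and PFKFB4, a regulator of glycolytic flux, by 0.49 ± 0.06, both without overlap. SLC2A1 overlaps SLC2A1-DT on the opposite strand.

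All 30 hypoxia targets tested had an average log2 change below 0, of which 18 were called and 12 were not, while 11078 of the 20868 genes tested lay below 0. The list was chosen with earlier results of these data known, so this is a description and not a test. The median of the list was -0.36. As with the sterol genes, siRNA 2 carried more of it, with 23 lower and a median of -0.52, against 6 lower, 1 higher and -0.13 with siRNA 1, and 21 of the 30 differed between the siRNAs. VEGFA, the angiogenic factor gene, had a log2 change of -0.10 with siRNA 1 and -0.75 with siRNA 2, and ANGPTL4, a lipase inhibitor gene, -0.46 and -1.29. SLC2A3, another glucose transporter gene, showed the reverse, -0.85 and 0.08. INSIG2 belongs to this list and to the sterol list. The list had 11, 11 and 10 genes lower without control replicates 1, 2 and 3, and 26 without the 3 libraries that followed GC content. Of 20 glycolysis genes 6 fell and 14 were not called in the average, with ENO2 (-0.53), ALDOC (-0.55) and PGK1 (-0.35) among those that fell. The 13 that fell with a single siRNA were all called with siRNA 2, so no member was common. Leaving out control replicate 1, 2 or 3 left 4, 3 and 4 lower, and 14 without the 3 libraries that followed GC content. By the test between the siRNAs, 16 of the 20 differed.

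Of 22 chaperone genes of the cytosol and mitochondria, 10 rose in the average. HSPA8, the constitutive Hsc70 chaperone gene, stood at 1161, 1186 and 1190.0 CPM in control, 1626, 1485 and 1468 CPM with siRNA 1 and 1766, 1713 and 1707 CPM with siRNA 2. Every siRNA library exceeded the controls, and the average log2 change was 0.46 ± 0.04 (adjusted p = 0.00088). HSP90AB1, the constitutive Hsp90 gene, was at 2598, 2621 and 2611 CPM in control, 3474, 3264 and 3306 CPM with siRNA 1 and 3003, 3086 and 3074 CPM with siRNA 2, a rise of 0.29 ± 0.04. AHSA1, which activates the Hsp90 ATPase, rose from 104, 103 and 106 CPM in control to 177, 150.5 and 156 CPM with siRNA 1 and 144, 134 and 133 CPM with siRNA 2, by 0.51 ± 0.07. The 3 genes had no overlap between siRNA and control libraries. HSPD1 and HSPE1, which encode the mitochondrial Hsp60 and Hsp10 and overlap each other on opposite strands, rose by 0.52 ± 0.07 and 0.39 ± 0.07, and the co-chaperone gene DNAJA1 by 0.34 ± 0.07.

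The other 12 chaperone genes were not called in the average, and the list had a median of 0.24. Of the 22 genes, 6 were common. HSP90AA1 (0.51), HSPH1 (0.52) and HSPA4 (0.35) were called in the average and with siRNA 2 and not with siRNA 1, and CCT5 (0.20) with siRNA 1 and not with siRNA 2. The medians were 0.29 with siRNA 1 and 0.26 with siRNA 2, with 10 and 9 genes higher. The count of genes higher was 8, 7 and 7 without control replicates 1, 2 and 3, 19 without the 3 libraries that followed GC content and 17 with the trend removed, and the median stayed between 0.22 and 0.33 over 20 alternatives. DNAJA1 lost its call without each control (adjusted p up to 0.107) and HSPE1 without control replicates 2 or 3 (up to 0.0833). CCT5 lost its call without each control, without replicate 2 or 3 of either siRNA and with the GC trend removed (up to 0.193). Of 23 genes of the unfolded protein response of the endoplasmic reticulum, EDEM1 (-0.57 ± 0.09), which sends misfolded glycoproteins to degradation, and the ubiquitin ligase gene SYVN1 (-0.46) fell and 21 were not called. The share called was 8.70%, near the 7.37% of all genes. SYVN1 lost its call without each control (up to 0.0812).

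The HSPA8 and DNAJA1 promoters are shown as the 2 of 6 common chaperone genes whose 250 bases before the start held GAANNTTC, a core of the heat shock element bound by HSF1, on either strand. 5.85% of all promoters held it. HSPA8 (chr11:123062137-123062386, minus strand) held it 2 times, starting 230 and 50 bases before the start, and DNAJA1 (chr9:33025023-33025272, plus strand) once, starting 198 bases before. Capitals mark the matches, and the sequences are from RefSeq on GRCh38.p14.
HSPA8 promoter: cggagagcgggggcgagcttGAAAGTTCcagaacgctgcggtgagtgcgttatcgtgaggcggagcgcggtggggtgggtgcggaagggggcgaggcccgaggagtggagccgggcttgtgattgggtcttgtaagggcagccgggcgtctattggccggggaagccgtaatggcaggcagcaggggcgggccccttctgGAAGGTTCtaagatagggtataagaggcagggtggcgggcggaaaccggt
DNAJA1 promoter: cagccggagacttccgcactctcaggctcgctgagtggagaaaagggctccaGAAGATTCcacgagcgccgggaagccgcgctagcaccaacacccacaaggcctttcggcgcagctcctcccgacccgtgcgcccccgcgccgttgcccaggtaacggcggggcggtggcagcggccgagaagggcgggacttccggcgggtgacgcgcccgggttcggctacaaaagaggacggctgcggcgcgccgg

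In the average 9 of 30 genes of ribosome making, 9 of 22 of nucleotide synthesis and 12 of 40 of the G1/S transition and DNA replication rose, and the others were not called. These are 30%, 40.9% and 30% of the lists, against 3.45% of all genes higher in the average. NOLC1, a nucleolar chaperone of small nucleolar ribonucleoproteins, stood at 239, 232 and 231 CPM in control, 351, 385 and 363 CPM with siRNA 1 and 362, 366 and 373 CPM with siRNA 2. The groups were far apart, and the log2 change was 0.65 ± 0.06 with siRNA 1 and 0.65 ± 0.06 with siRNA 2. The ribosome biogenesis and MYC target list had 21 genes not called (median 0.18), with NOLC1, the pseudouridine synthase gene DKC1 (0.40 ± 0.06), TCOF1, a factor of rRNA transcription (0.48 ± 0.07), and the box C/D protein gene NOP56 (0.29 ± 0.06) common. The RNA polymerase I genes POLR1A (0.42) and POLR1B (0.43) were called in the average. Leaving out control replicate 1, 2 or 3 left 3, 2 and 2 genes of this list higher, and 20 were higher without the 3 libraries that followed GC content. TCOF1 lost its call without control replicates 2 or 3 (adjusted p up to 0.0514), and NOP56, POLR1A and POLR1B without each control (up to 0.113, 0.069 and 0.0662). Of 37 cytosolic ribosomal protein genes, which have many pseudogenes, 36 were not called and 1 fell, 2.70% against 7.37% of all genes called. That gene was RPL15 (-0.17), whose call was lost without each control and without replicate 2 or 3 of either siRNA (up to 0.195).

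PRPS1, which makes the ribose phosphate from which nucleotides are built, was at 64.6, 63.9 and 64.3 CPM in control, 93.3, 86.9 and 87.7 CPM with siRNA 1 and 85.1, 84.5 and 83.5 CPM with siRNA 2. It rose by 0.43 ± 0.05 with no overlap (adjusted p = 0.0022). Of 22 nucleotide synthesis genes, 9 rose and 13 were not called in the average (median 0.21), and the CTP synthase gene CTPS1 (0.33 ± 0.06) and the uridine kinase gene UCK2 (0.36 ± 0.06) were common beside PRPS1. CAD, which starts pyrimidine synthesis (0.32), GMPS (0.32) and NME1 (0.48) were called in the average. Leaving out control replicate 1, 2 or 3 left 2, 1 and 1 higher, and without the 3 libraries that followed GC content 16. In one-carbon metabolism, 3 of 18 genes rose, 15 were not called, and all 3 were common. MTHFD1, a folate enzyme gene, rose by 0.42 ± 0.06, AHCY, which clears S-adenosylhomocysteine, by 0.44 ± 0.07, and the thymidylate synthase gene TYMS by 0.31 ± 0.06. UCK2, CTPS1, CAD, GMPS and TYMS lost their calls without each control (adjusted p up to 0.0607, 0.0812, 0.148, 0.155 and 0.106), and NME1 without control replicates 2 or 3 (up to 0.0504). CAD was also lost without siRNA 2 replicates 2 or 3, and GMPS without replicates 2 or 3 of either siRNA.

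Of 40 genes of the G1/S transition and replication, 12 rose and 28 were not called in the average (median 0.24). The rise was carried by siRNA 1, with 21 higher and a median of 0.37, while with siRNA 2 5 were higher, 2 lower and the median was 0.08, and 18 of the 40 differed between the siRNAs. The common ones were the GINS complex genes GINS2 (0.51 ± 0.09) and GINS3 (0.45 ± 0.09), the origin gene ORC1 (0.39 ± 0.08), the primase-polymerase gene POLA1 (0.42 ± 0.07) and TYMS. CDC25A, a phosphatase gene of the G1/S transition, had a log2 change of 0.76 with siRNA 1 and 0.09 with siRNA 2. In G2/M, 5 of 34 rose and 29 were not called (median 0.16), with CCNB2, a mitotic cyclin gene (0.43 ± 0.06), and the mitotic transcription factor gene FOXM1 (0.27 ± 0.06) common. Among 26 DNA repair genes, 5 rose and 21 were not called (median 0.19). UNG, which removes uracil from DNA, was at 53.1, 54.0 and 54.4 CPM in control, 78.2, 76.2 and 77.6 CPM with siRNA 1 and 72.0, 81.8 and 81.4 CPM with siRNA 2. It rose by 0.53 ± 0.06 with no overlap, and BRCA1 (0.38 ± 0.08), FANCI (0.30 ± 0.05) and MSH6 (0.32 ± 0.06) were also common.

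Most of these cell cycle calls were lost when a control was left out, and the cause was not tested. Leaving out control replicate 1, 2 or 3 left 1, 1 and 3 of the G1/S genes, 1, 1 and 2 of the G2/M genes and 1, 1 and 1 of the repair genes higher, and without the 3 libraries that followed GC content 34, 24 and 12 were. GINS3, ORC1, FOXM1, BRCA1, FANCI and MSH6 lost their calls without each control (adjusted p up to 0.111, 0.105, 0.122, 0.108, 0.0721 and 0.0845), FOXM1 also without siRNA 2 replicate 3, and GINS2 and POLA1 without control replicates 1 or 2 (up to 0.071 and 0.0635). CDC25A, CCNB2 and UNG kept theirs under all 20 alternatives.

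**Figure D4:**
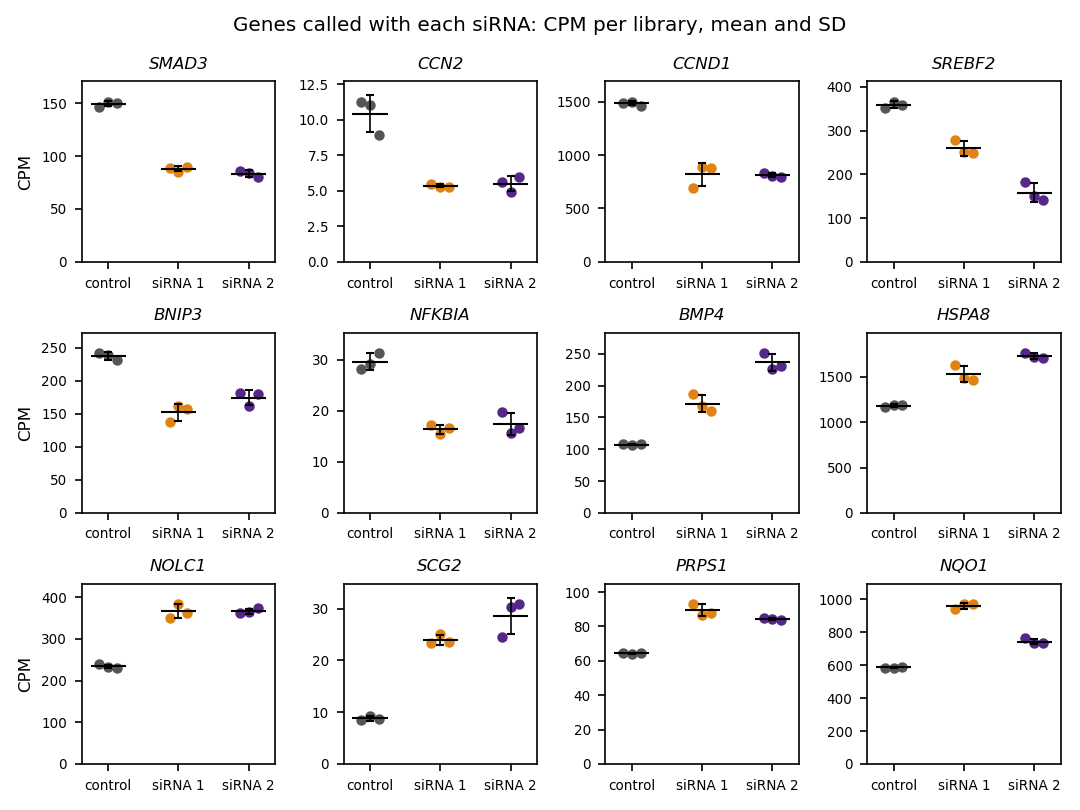
CPM of 12 common genes in each library, grouped by control, siRNA 1 and siRNA 2, with replicates 1 to 3 from left to right. Horizontal lines are the means and bars the SD over 3 libraries, and each y axis starts at 0. SMAD3, CCND1, SREBF2 and BNIP3 lie lower and BMP4, HSPA8, NOLC1 and SCG2 higher in every siRNA library than in the controls.

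Keratins are the intermediate filaments of epithelial cells. KRT7, a keratin of simple epithelia, stood at 11.01, 10.0 and 10.3 CPM in control, 3.10, 3.24 and 3.33 CPM with siRNA 1 and 4.63, 5.24 and 5.00 CPM with siRNA 2. All siRNA libraries were below the controls, those of siRNA 1 the lowest, and KRT7 fell by 1.39 ± 0.10 in the average (adjusted p = 0.00016). KRT81, a hair keratin gene, was at 2.57, 2.43 and 3.19 CPM in control, 0.674, 0.561 and 0.767 CPM with siRNA 1 and 1.25, 0.931 and 1.36 CPM with siRNA 2. It fell by 1.62 ± 0.19 with no overlap. Of 17 keratin genes tested, 7 fell and 2 rose in the average (median -0.25). KRT20, a marker of differentiated colonocytes, rose in the average with a log2 change of 1.02 with siRNA 1 and 2.04 with siRNA 2, and KRT23 with 0.13 and 1.18. KRT8 (-0.30), KRT18 (-0.26) and KRT19 (-0.31), which are also in the epithelial marker list and have processed copies, were lower in the average and not called with each siRNA. They lost their calls without each control, without replicate 2 or 3 of either siRNA and with upper quartile factors (adjusted p up to 0.206, 0.226 and 0.186). Leaving out control replicate 1, 2 or 3 left 2, 2 and 3 keratin genes lower, KRT7 and KRT81 among them. KRT20 was lost without control replicates 1 or 3 (up to 0.0528). KRT7 overlaps KRT7-AS on the opposite strand.

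Of 23 integrin and focal adhesion genes, 5 fell and 18 were not called in the average (median -0.19). ITGA3, a laminin receptor subunit gene, was at 783, 806 and 818 CPM in control, 668, 556 and 553 CPM with siRNA 1 and 604, 549 and 557 CPM with siRNA 2. It fell by 0.47 ± 0.07 with no overlap. The adaptor gene PXN (-0.38 ± 0.06) and the vitronectin receptor gene ITGB5 (-0.50 ± 0.08) were common too. With siRNA 2 the log2 changes of ITGA3, PXN and ITGB5 were -0.49, -0.41 and -0.58. With the GC trend removed they were -0.19, -0.13 and -0.47. The list median was then -0.08, against 0.02 over all genes. PXN lost its call without control replicates 2 or 3 (adjusted p up to 0.0527) and ITGB5 without control replicates 1 or 2 (up to 0.056), and the list had 2, 1 and 2 genes lower without control replicates 1, 2 and 3. Among 24 mesenchymal and matrix genes, 5 fell and 19 were not called, with TIMP2 common. PLAU, the urokinase gene (-0.54), was called in the average and with siRNA 2. ACTA2, a smooth muscle actin gene that overlaps FAS, rose by 0.70 ± 0.12 and lost its call without control replicates 1 or 3 (up to 0.0694). Fibroblast markers summed lower in both siRNA groups, as given above, but did not move together. Of the 4 tested, 1 was called lower in the average and 1 had the same sign with both siRNAs. Their median log2 change was -0.46 with siRNA 1 and 0.42 with siRNA 2. The part of these markers in the values of this paragraph was not tested.

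NQO1, a quinone reductase gene and target of the oxidant sensor NRF2, stood at 585, 586 and 591 CPM in control, 939, 969.6 and 975 CPM with siRNA 1 and 763, 733 and 736 CPM with siRNA 2. It rose by 0.53 ± 0.04 in the average with no overlap (adjusted p = 0.00024), more with siRNA 1 (siRNA 2 minus siRNA 1 -0.37, adjusted p = 0.00081). Of 25 NRF2 targets, 4 rose and 1 fell in the average, but 11 rose with siRNA 1 and 3 with siRNA 2, and NQO1 and ME1 were the common ones. Of 26 cell death and survival genes, 5 fell and 2 rose. MCL1, an anti-apoptotic BCL2 relative, was at 338, 334 and 331 CPM in control, 174, 209 and 214 CPM with siRNA 1 and 248, 268 and 262 CPM with siRNA 2. It fell by 0.56 ± 0.07. TNFRSF10D, a decoy receptor gene for TRAIL among 29 p53 genes tested, fell by 0.72 ± 0.05, with -0.26 for siRNA 1 and -1.18 for siRNA 2. In that list 3 genes rose and 2 fell, and BTG2, an antiproliferative p53 target, rose by 0.40 ± 0.06 while CDKN1A fell. NDUFA4, a respiratory chain subunit gene, fell by 0.56 ± 0.08 as the 1 called of 32 nuclear respiratory chain genes. That is 3.1% of this list, against 7.37% of all genes called. In the mitochondrial genome, 4 of 15 genes rose and 11 were not called, MT-ND5 (0.28 ± 0.04) and MT-CYB (0.24 ± 0.04) with each siRNA, and the share of counts from this genome is given above. MT-CYB lost its call without each control (adjusted p up to 0.0977).

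Many genes of the ATF4 response differed between the 2 siRNAs. ATF4 turns on amino acid transport and synthesis genes under stress. Of 27 genes of this response, 1 rose and 2 fell in the average with a median of 0.04, yet 15 rose and 12 were not called with siRNA 1 (median 0.45), and 1 rose and 14 fell with siRNA 2 (median -0.28). 20 of the 27 differed between the siRNAs, and none was common. ASNS, the asparagine synthetase gene, was at 113, 109 and 107 CPM in control, 220.0, 232 and 227 CPM with siRNA 1 and 70.9, 64.3 and 70.3 CPM with siRNA 2. The siRNA 1 libraries lay above and the siRNA 2 libraries below the controls, and siRNA 2 minus siRNA 1 was -1.73 ± 0.07 (adjusted p = 1.7e-06). SLC7A5, an amino acid transporter gene, was at 474, 480.0 and 489 CPM in control, 890.5, 770.0 and 759.6 CPM with siRNA 1 and 222, 169 and 172 CPM with siRNA 2, again on either side of the controls. Over all genes, 104 were called in opposite directions (55 higher with siRNA 1 and 49 higher with siRNA 2), and 3 of them, DDIT3, NES and TSPOAP1-AS1, were called in the average. NES was chosen after its values were seen.

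**Figure D5:**
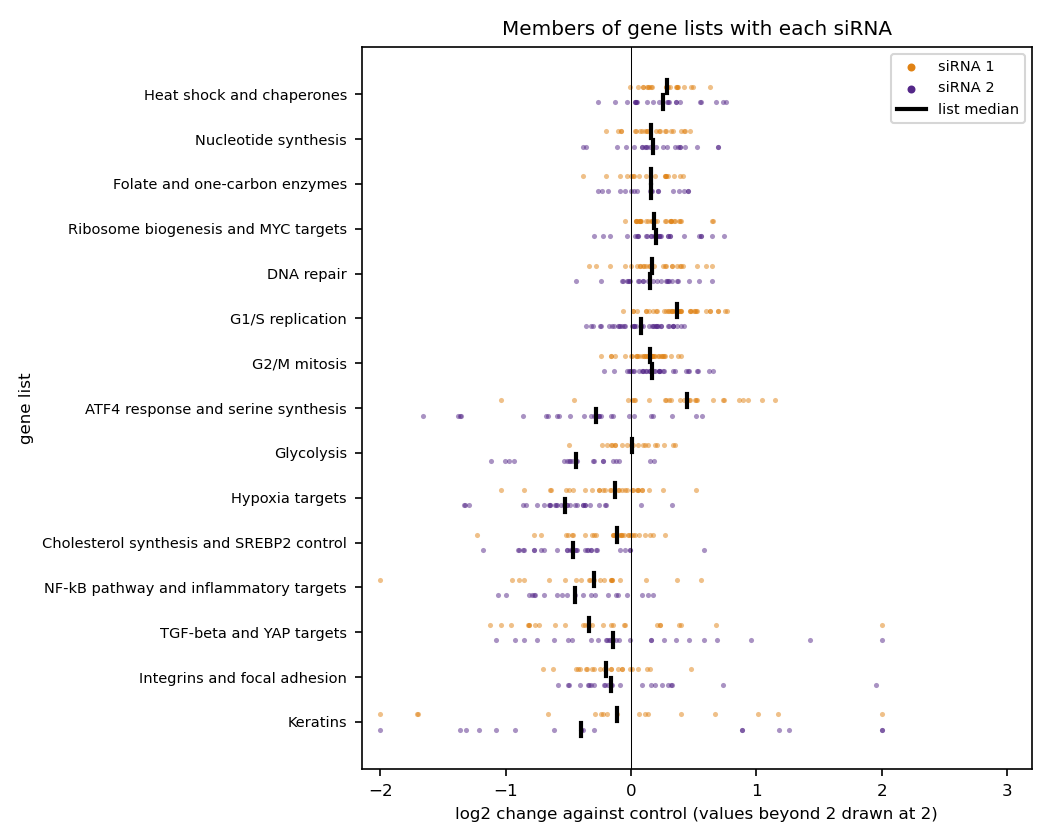
Members of 15 gene lists, a row each, with their log2 change against control on the x axis. Orange points are siRNA 1, purple points siRNA 2, and black bars the list medians, and values beyond 2 in either direction are drawn at 2. The medians of both siRNAs lie above 0 for chaperones and below 0 for NF-kB targets, while those of the ATF4 list lie on either side of 0.

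35 genes were called in the average and with neither siRNA alone, 13 higher and 22 lower. By the smallest adjusted p they were SMC1A, a cohesin subunit gene (0.25 ± 0.06), NABP2 (0.46 ± 0.12), ASRGL1 (0.41 ± 0.11), RBMXL1 (0.40 ± 0.10) and the mitochondrial tRNA gene MT-TN (0.23 ± 0.06) among those higher, and PGM5P2 (-0.73 ± 0.18), GOLGA8IP (-1.98 ± 0.48), GOLGA6L9 (-0.45 ± 0.11), WTIP (-0.51 ± 0.13) and ENSG00000288710 among those lower. SMC1A was at 158, 159.8 and 159 CPM in control, 197, 188 and 192 CPM with siRNA 1 and 167, 193 and 199.9 CPM with siRNA 2. The groups did not overlap, but the adjusted p was 0.052 with siRNA 1 and 0.063 with siRNA 2. ENSG00000288710 rests on control replicate 2, with 1.02, 13.4 and 0.306 CPM in the controls, and its adjusted p was 0.669 without that library. The other 9 lost their calls without each control and without at least 2 siRNA libraries (adjusted p up to 0.15 to 0.23). PGM5P2, GOLGA8IP and GOLGA6L9 belong to families of near-identical copies.

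Of the genes near EXOSC10-AS1, 8.70% were called in the average, and of those of the RNA exosome 4%, against 7.37% of all genes. Among 25 genes of the RNA exosome and its cofactors, DIS3L, a cytoplasmic exosome nuclease gene, was the 1 called in the average (0.34 ± 0.08), and the call was lost without each control, without siRNA 1 replicate 3 and without siRNA 2 replicate 2 or 3 (adjusted p up to 0.14). Among 23 genes of the EXOSC10-AS1 locus, the apoptotic nuclease inhibitor gene DFFA (0.37 ± 0.06) and the kinase gene MTOR (0.35 ± 0.06) rose with each siRNA and 21 genes were not called in the average. DFFA was at 70.3, 71.4 and 66.9 CPM in control, 87.2, 83.4 and 86.8 CPM with siRNA 1 and 98.8, 90.3 and 94.3 CPM with siRNA 2, without overlap. MTOR was at 107, 101 and 100.4 CPM in control, 126, 126 and 121 CPM with siRNA 1 and 128, 144 and 145 CPM with siRNA 2. Both were higher in all siRNA libraries than in the controls, overlap genes on the opposite strand, and lost their calls without control replicate 3 (DFFA, adjusted p 0.0591) or control replicates 2 or 3 (MTOR, up to 0.0746). Of 13 genes of the RNA interference machinery, the exportin gene XPO5 was higher (0.27 ± 0.06) and TNRC6C lower (-0.28 ± 0.06) in the average, and both calls were with siRNA 2 and not with siRNA 1. They were lost without each control and without siRNA 2 replicate 2 or 3, and that of TNRC6C also without siRNA 1 replicate 2 or 3 (adjusted p up to 0.155 and 0.181). Of 22 snoRNA host genes, 1 rose and 2 fell, with SNHG5 common (-0.63 ± 0.07). Of 3436 long non-coding RNA genes tested, 81 were called in the average (2.36%) and 19 were common, against 9.60% of 14538 protein-coding genes called. These shares were not compared at equal expression levels.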

How the data were processed

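Total RNA libraries of HCT116 cells were grouped by the treatment and title in the labels. The authors deposited a table of raw counts per Ensembl gene identifier, and per the submitters' processing notes the genome build was hg19. The aligner, annotation, counting strand and treatment of multiply mapped reads were not given in the sources used here. Of its 61806 identifiers, 61757 matched a symbol and 49, with 0.0158% of counts, did not. Levels in CPM were computed here.

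edgeR 4.0.16 in R 4.3.3 was fitted with group means over all 9 libraries, after its filter on low counts (20868 genes, 99.96% of counts) and TMM scaling, and tested with the quasi-likelihood test and Benjamini-Hochberg adjustment over all genes. Alternatives were DESeq2 1.42.0, limma-voom (limma 3.58.1), other scalings and filters, GC content and replicate terms, and left-out libraries. On simulated data with 20231 genes for this comparison, 50% of 1.5-fold and 86% of 2-fold changes were called in the average, 27% and 78% with each siRNA, beside 14 false calls. The simulation gave both siRNAs the same changes, left genes of the lowest levels unchanged and held no GC trend. Its shares and false calls therefore need not hold for these libraries. Named genes are the 15 common genes each way with the largest smaller change, the 10 each way with the smallest adjusted p, 5 each way called in the average alone, the 5 with the largest difference each way among those called in opposite directions, and up to 4 common members of each gene list, while other list members called in the average may also be named. The gene lists and their members were chosen with earlier results of these data known. Libraries carry no molecular identifiers, so limits from counts cover counting error only, with a floor of 3 counts. Promoters were read from RefSeq on GRCh38.p14, and overlaps of genes from an annotation of that newer build. Deviations from the group means of siRNA 1 and siRNA 2 libraries of the same replicate number correlated at 0.311, 0.136 and 0.175. The labels state no pairing, and a block for the replicate number was tried only as an alternative. The test of siRNA 2 against siRNA 1 called 5150 genes with the replicate block and 4681 without it. Differences between the siRNAs given for single genes are from the fit without the block. Values of a few list members are not reported here.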

Additional observations from a re-analysis of the deposited data

Results flagged for a closer look

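The test of siRNA 2 against siRNA 1 called 35 of the 127 named genes. The 12 of them given here are leading genes or were chosen for their opposite directions, and the differences are log2 changes of siRNA 2 minus siRNA 1. 2 of the 12 are leading genes of unequal size. CEMIP rose more with siRNA 2 (0.40, adjusted p = 0.013) and KRT7 fell less with it (0.62, adjusted p = 0.0059). The other 10 were called in opposite directions with the 2 siRNAs, and of them DDIT3 and TSPOAP1-AS1 were also called in the average.

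CD68, a lysosomal membrane protein gene used as a macrophage marker, stood at 18.4, 21.5 and 15.5 CPM in control, 36.7, 31.8 and 33.9 CPM with siRNA 1 and 4.55, 6.48 and 3.87 CPM with siRNA 2, a difference of -2.78 (adjusted p = 4.1e-05). PTPRC, CD3E, MS4A1 and HBB were at 0 in every library. Among stress genes the difference was -2.26 for CHAC1, which degrades glutathione, -2.10 for SLC7A5, -1.77 for the transcription factor gene DDIT3 and -1.73 for ASNS, with adjusted p of 4.6e-05, 1.5e-05, 1.5e-05 and 1.7e-06. All 3 libraries of siRNA 1 lay above and all 3 of siRNA 2 below the controls in these 5 genes.

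The reverse held for 5 genes. SPARC, a matrix protein gene, stood at 4.77, 5.10 and 4.22 CPM in control, 0.657, 0.998 and 1.16 CPM with siRNA 1 and 12, 12.2 and 13.1 CPM with siRNA 2, a difference of 3.72 (adjusted p = 1.5e-05). CYP24A1, the vitamin D hydroxylase gene, stood at 37.1, 39.1 and 35.4, at 17.5, 17.6 and 18.9 and at 86.2, 94.9 and 92.3 CPM, a difference of 2.34 (adjusted p = 7.6e-07). The difference was 2.07 for PIK3R3, a regulatory subunit gene of PI3 kinase, 1.74 for the cholesterol exporter gene ABCA1 and 1.69 for the non-coding gene TSPOAP1-AS1 (adjusted p = 8.7e-05, 0.00051 and 4.1e-05).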

How the results depend on the processing

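All 20 alternatives kept the sign of the 127 named genes. The alternatives reuse libraries from which these genes were chosen, so the kept signs are no further support. Of 2533 pairs of gene and alternative, 2345 stayed on the same side of the threshold and 188 lost the call, 122 of them with a control library left out. The counts moved more. In the order higher and lower in the average, higher and lower with each siRNA, and common genes that also differed between the siRNAs (720, 818, 259, 189 and 70), they were 1394, 1326, 473, 372 and 170 by DESeq2, 2261, 1473, 892, 481 and 350 with the GC trend removed, and 2461, 2360, 993, 821 and 466 without the 3 libraries that followed GC content. Without a filter on low counts 166, 115 and 34 genes remained under the last 3 rules, and adjusting the larger p of the 2 siRNAs left 95 higher and 75 lower with each. Leaving out 1 library at a time gave 158 to 1907, 156 to 1745, 62 to 637, 48 to 452 and 14 to 238, lowest without control replicate 2 except for a shared lowest last count, and highest without siRNA 1 replicate 1. The cause was not tested. Of 1039 pairs of list median and alternative, 47 moved beyond the spread. Changes of 1.5-fold were called in 50% of cases at this depth on simulated data, which held equal changes with both siRNAs and no GC trend. Uncalled genes are therefore not shown to be unchanged, and the share in these libraries may differ.

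Replicate numbers did not pair control with siRNA libraries, whose deviations from the group means correlated at -0.094 to 0.112. The block ended no difference between the siRNAs given for a single gene. With the replicate number as a block the 5 counts were 685, 874, 241, 210 and 80, and with the replicate block and the GC trend removed they were 2029, 1377, 785, 438 and 292.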

Other observations

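Several genes with common changes lie outside the comparisons above and were chosen after their values were seen. DKK4, which encodes a secreted Wnt antagonist, stood at 0.651, 0.2999 and 0.693 CPM in control, 1.66, 2.20 and 1.79 CPM with siRNA 1 and 3.95, 4.97 and 3.12 CPM with siRNA 2, a rise of 2.32 ± 0.29. FRZB, another secreted Wnt antagonist gene, moved the other way, from 1.87, 2.27 and 2.16 CPM in control to 0.361, 0.733 and 0.572 CPM with siRNA 1 and 0.455, 0.615 and 0.670 CPM with siRNA 2, a fall of 1.88 ± 0.24. The groups overlapped in neither gene. PDGFB, a platelet-derived growth factor gene, was at 100.5, 102 and 101 CPM in control, 72.8, 61.5 and 59.4 CPM with siRNA 1 and 53.9, 43.4 and 42.7 CPM with siRNA 2, and fell by 0.89 ± 0.09. NCLP1, a pseudogene of nucleolin, had no count in the controls. Its mean level was at least 3.40-fold higher with siRNA 1 and at least 4.46-fold higher with siRNA 2 than a floor of 3 counts in a single control library. Its call was lost without each control library (adjusted p up to 0.108), and reads of the parent gene could be counted there.

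The polyamine, lysosome, S100 and interferon lists held at most 2 common members each. SAT1, which acetylates polyamines for export, stood at 528, 524 and 534 CPM in control, 359, 377 and 372 CPM with siRNA 1 and 373, 415 and 405 CPM with siRNA 2, and fell by 0.46 ± 0.05. It is 1 of 3 of 15 polyamine genes that fell in the average, beside the deoxyhypusine synthase gene DHPS (-0.44) and the arginase gene ARG2 (-0.52), which lost their calls without control replicates 1 or 3 and without each control (adjusted p up to 0.0582 and 0.164). Of 28 lysosome and autophagy genes 3 rose and 5 fell, and AGA, a lysosomal amidase gene, rose from 3.96, 4.41 and 4.16 CPM in control to 10.9, 10.99 and 9.42 CPM with siRNA 1 and 5.41, 5.502 and 5.67 CPM with siRNA 2. Of 11 S100 genes 3 fell and 1 rose, with S100A10 lower (-0.52 with siRNA 1 and -0.40 with siRNA 2) and S100A14 at 1.38 with siRNA 1 and -0.23 with siRNA 2. Of 31 interferon-stimulated genes 2 rose and 1 fell in the average, 9.68% called against 7.37% of all genes. In this list 5 fell with siRNA 1 (median -0.12), 11 rose and 5 fell with siRNA 2 (median 0.41), and 22 differed between the siRNAs.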
